A study of Homo sapiens with 3 samples.

Results

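The 9 genes described here are BCL2 family members other than the best-known p53 targets of the family: BCL2, BCL2L1, BCL2L2, MCL1, BCL2L13, BAK1, BID, BCL2L11 and BMF. They were chosen by gene symbol, and all 9 had a row among the 12040 genes of the deposited table. The series depleted DICER1, which cuts miRNA precursors, in HEK293 cells. Of its 3 libraries of poly(A) RNA, 1 came from cells with DICER1 knocked down, 1 from cells with DROSHA, an enzyme acting earlier on miRNA precursors, knocked down, and 1 from mock-transfected cells. All were made from a T-Rex FLP-IN derivative of HEK293 that carries FLAG:DICER1, the mock control included, and RNAi was done by transfection. HEK293 is an established line from human embryonic kidney, transformed with adenovirus genes. The adenovirus E1B region encodes a protein that resembles BCL2 in function, so these cells have a viral survival protein beside their own. The sources used here do not say whether the line is a single clone or whether expression of the transgene was induced. Every sample title carries 2.5d, which is not explained.

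The table has no column names. It holds 2 log2 fold changes that share a denominator library, called here the first and the second comparison, and neither was assigned to a knockdown. A log2 fold change of 0 means equal levels, and 1 means a doubling after 1 was added to both levels. Adding 1 shrinks the values of genes with low levels. With 1 library per group there was no replicate error and no test, so the words rose and fell are kept for values past 1 in size, and 0.5 (a ratio of 1.41) serves as a lower limit. The targeted genes had these values in the authors' deposited table: DICER1 was -1.32 in the first and 0.58 in the second comparison, and DROSHA was -0.11 in the first and -1.65 in the second comparison. Between them, only DICER1 fell in the first and only DROSHA in the second comparison, though no column name states the knockdown. Of 8 genes that HEK293 is known to express, VIM, KRT8, KRT18, NEFL and INA had rows, while NEFM, PAX2 and PAX8 had none. No row was found for any of 10 markers of blood, liver, fibroblasts and endothelium. The 5 HEK293 genes with rows had medians of 0.48 and -0.33. The authors' deposited table gave INA, a neuronal filament gene, 1.05 and -0.57, NEFL 0.65 and -0.33, and VIM 0.48 and -0.16. For the keratin genes the authors' deposited table gave -0.10 and -0.50 for KRT8 and -0.0057 and 0.0098 for KRT18. The part of these differences in the BCL2 family values was not tested.

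BCL2 family proteins decide whether the outer mitochondrial membrane stays intact. BCL2, BCL2L1 (BCL-XL), BCL2L2 (BCL-W) and MCL1 hold the membrane closed, and BAK1 and its relative BAX form pores in it that release cytochrome c. BID, BCL2L11 (BIM) and BMF belong to the BH3-only proteins, which carry death signals by binding to the survival proteins or the pore formers. Several of these mRNAs are textbook miRNA targets, among them BCL2 for miR-15 and miR-16, MCL1 for miR-29, BAK1 for miR-125b and BCL2L11 for the miR-17 family.

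The miRNAs whose seed matches are shown next in BCL2 family transcripts have the following mature sequences, from RefSeq on GRCh38.p14, with the seed (bases 2 to 8) in capitals. All 13 miRNAs searched had an entry, and they share 11 seeds. MiR-15a-5p and miR-16-5p share 1 of them.
miR-125b-5p: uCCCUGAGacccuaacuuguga
miR-29a-3p: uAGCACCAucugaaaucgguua
miR-15a-5p: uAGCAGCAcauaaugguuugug
miR-16-5p: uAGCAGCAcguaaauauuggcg
let-7a-5p: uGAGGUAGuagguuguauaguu
miR-181a-5p: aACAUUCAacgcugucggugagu

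One match to these seeds is printed for each of 6 members, to show what the search found. Each was read from the 3' UTR of a GENCODE 29 transcript on GRCh38, a later build than the hg19 named in the submitters' processing notes. Capitals mark the 7-mer complementary to the seed. All 6 lie in the last exon of their transcript.
BCL2L13, miR-125b-5p, chr22:17728166-17728194, plus strand, exon 7: tctcagctgcctCTCAGGGactgcactgt
BAK1, miR-125b-5p, chr6:33573157-33573185, minus strand, exon 6: tgcagttggactCTCAGGGattctgggct
MCL1, miR-29a-3p, chr1:150576030-150576058, minus strand, exon 3: ctagtctaaccaTGGTGCTattattaggc
BCL2, miR-15a-5p and miR-16-5p, chr18:63126080-63126108, minus strand, exon 2: tatccaatcctgTGCTGCTatcctgccaa
BCL2L1, let-7a-5p, chr20:31664988-31665016, minus strand, exon 3: ccagggtcttccCTACCTCaggcaggaag
BCL2L11, miR-181a-5p, chr2:111164427-111164455, plus strand, exon 5: ggaagtttgttgTGAATGTaaaggaggga

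No BCL2 family member rose or fell past 1 in either comparison or in the difference between them. Over all genes of the table, 0.174% rose and 0.166% fell in the first comparison, 0.0831% rose and 0.748% fell in the second, and the difference was past 1 upward in 1.31% and downward in 0.349%. The member farthest from 0 was BCL2L13, in the second comparison. Past the lower limit of 0.5 there was no member in the first comparison, where 1.46% of all genes were higher and 2.04% lower. In the second comparison 1 of 9 members, BCL2L13, was below -0.5, and no member was above 0.5, beside 5.59% and 2.33% of all genes. In the difference 2 of 9 members, BCL2L13 and BMF, were above 0.5 and none was below -0.5, beside 8.6% and 4.82% of all genes. With GC content and the lengths of transcript and 3' UTR regressed out, the difference was 0.68 for BCL2L13 and 0.42 for BMF. With 9 members, counts of this size do not set the family apart from the table.

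**Figure D1:**
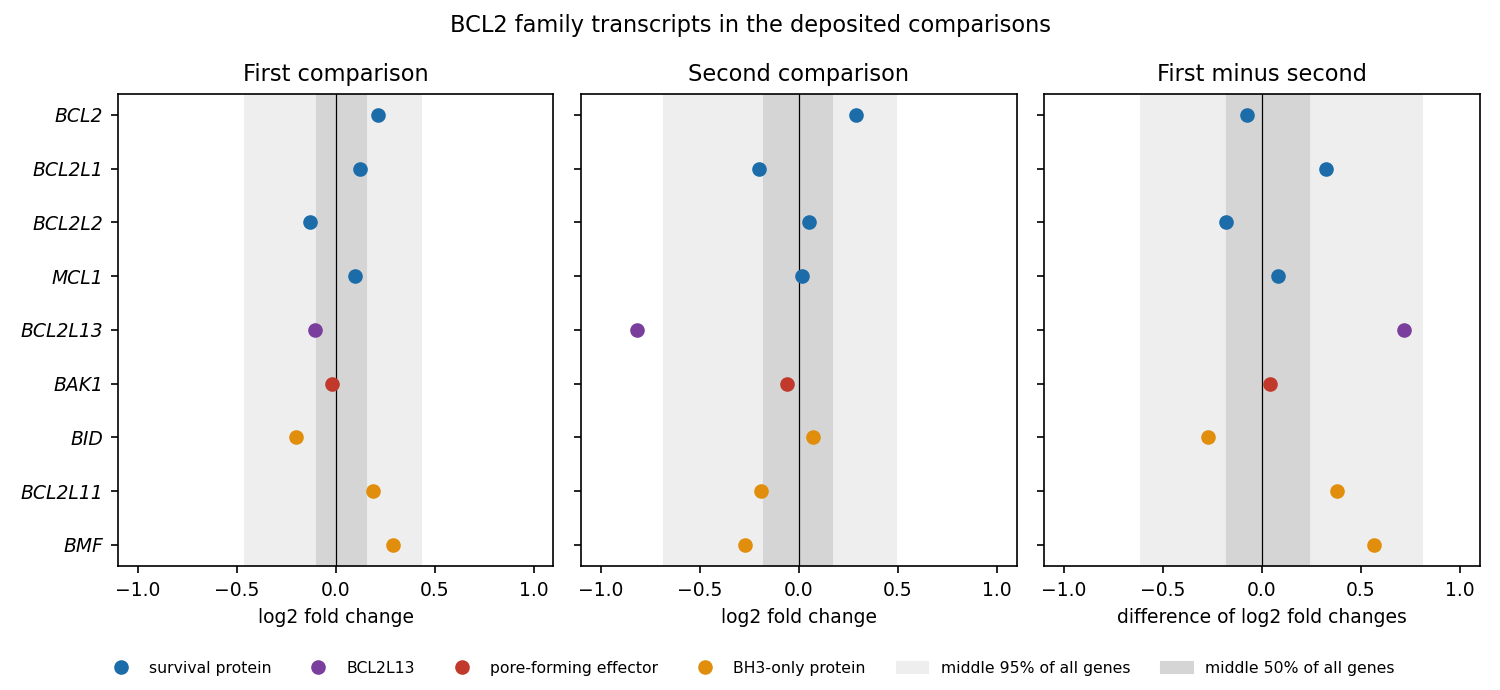
Log2 fold change of each BCL2 family gene (rows) in the first comparison, the second comparison and, as a difference of the log2 fold changes, the first minus the second, with 1 point per gene and colours for the roles. Grey bands show where the middle 50% and the middle 95% of all 12040 genes lie, and BCL2L13 at -0.82 in the second comparison is the one point outside the wider band.

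The values of the survival genes were small. In RNA from a whole culture, a lower level in each cell cannot be told apart from fewer cells that express the gene. BCL2, the founder of the family, had the highest values of the 4. The authors' deposited table gave it 0.21 in the first and 0.29 in the second comparison, which are ratios of 1.16 and 1.22. Of all genes, 83.7% were lower than BCL2 in the first and 88.4% in the second comparison. MCL1, a short-lived survival protein that many cells depend on, was given 0.097 and 0.017 by the authors' deposited table. It was the member nearest to 0 in the second comparison, where 94.4% of all genes were farther from 0, against 60.3% in the first.

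For BCL2L1, which encodes BCL-XL, the authors' deposited table gave 0.12 in the first and -0.20 in the second comparison. The difference of 0.32 compares the 2 numerator libraries without the shared denominator, and 30.4% of all genes had a larger one in size. With length and GC content regressed out, the BCL2L1 difference was 0.16. For BCL2L2, which encodes BCL-W, the authors' deposited table gave -0.13 and 0.052. The BCL2L2 row is uncertain, because the gene overlaps the readthrough gene BCL2L2-PABPN1 on the same strand and HOMEZ and PPP1R3E on the other, and no source used here says if the counting used strand. For the same reason BCL2, BCL2L1, BAK1, BCL2L11 and BMF, which overlap noncoding genes or a pseudogene on the other strand, could hold some of their reads. On the same strand MCL1 overlaps ADAMTSL4-AS1, BID overlaps MIR3198-1 and BCL2 overlaps AC022726.1, and counting by strand would not separate those. All these overlaps are of whole gene spans, and exons were not compared. AC022726.1 is annotated as sense intronic, so it lies within an intron. The authors' deposited table gave the readthrough row -0.14 and -0.11. Over the 4 survival genes the median was 0.11 in the first and 0.035 in the second comparison, against 0.030 and 0.0063 over all genes.

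BCL2L13 encodes a protein of the outer mitochondrial membrane with BCL2 homology that also serves as a receptor for mitophagy, the removal of mitochondria by autophagy. The authors' deposited table gave it -0.10 in the first and -0.82 in the second comparison. The second value is a ratio of 0.567, so the level with 1 added was 1.76-fold lower in that numerator library than in the denominator library. Counted from the lowest, BCL2L13 was gene 2866 of 12040 in the first and gene 162 in the second comparison. The first minus the second gave 0.72, a ratio of 1.64 between the numerator libraries, and 4.90% of all genes had a larger difference in size. With GC content and the lengths of transcript and 3' UTR regressed out, BCL2L13 was at -0.12 and -0.80. That used the GENCODE transcript searched here, while 9 of 11 protein-coding transcripts of BCL2L13 have a longer 3' UTR. The genes nearest to BCL2L13 in the plane of both comparisons were CD164, ATP1B3 and LOC100506686, out of 12040. The authors' deposited table gave -0.10 and -0.83 for CD164, -0.11 and -0.81 for ATP1B3, and -0.094 and -0.83 for LOC100506686. This likeness rests on 2 values per gene, and the comparisons share a library.

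BAK1, the pore-forming effector among the members, was nearest to 0 in the first comparison. The authors' deposited table gave it -0.019 in the first and -0.061 in the second comparison. With length and GC content regressed out, BAK1 was at -0.098 and 0.058, so its sign in the second comparison turned. Its difference between the comparisons was 0.043 as deposited and -0.16 after that adjustment.

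The BH3-only genes did not share a direction. BMF, whose protein is held at the actin cytoskeleton until a death signal frees it, had the highest value of the members in the first comparison. The authors' deposited table gave it 0.29 in the first and -0.27 in the second comparison, ratios of 1.22 and 0.827. Its difference was 0.56, a ratio of 1.48, and 10.1% of all genes had a larger one in size. BCL2L11, which encodes BIM, was given 0.19 and -0.19 by the authors' deposited table, a difference of 0.38. BID, which caspase-8 cuts to pass signals of death receptors on to mitochondria, had the lowest value of the members in the first comparison. The authors' deposited table gave BID -0.20 and 0.071, a difference of -0.27. BMF and BCL2L11 were therefore higher, and BID lower, in the first numerator library than in the second. Differences larger in size than that of BCL2L11 were found in 23.5% of all genes, and than that of BID in 38.5%. Both comparisons share the denominator library, so a value of one comparison is not independent of the other.

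For all 9 members the median was 0.097 in the first and -0.061 in the second comparison, against 0.030 and 0.0063 over all genes. The SD among members was 0.171 in the first and 0.312 in the second comparison, against 0.227 and 0.298 among all genes. For the first minus the second the median was 0.080 over the members and 0.025 over all genes. Fold changes were related to the GC content of the transcript across the 10368 genes whose 3' UTR reached 50 bases, with a Spearman rho of 0.39 in the first comparison, -0.28 in the second and 0.47 in the difference. These points share their libraries, and the rho values are descriptions. Transcripts of the members ran from 45.1% GC (MCL1) to 58.8% (BAK1).

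The 3' UTRs of the members differed in length and in the seed matches they hold. In the transcript used for the search, the 3' UTR was longest in BCL2, at 5279 bases, and shortest in BCL2L11, at 817 bases. BCL2 held matches to 7 of the 11 seeds and MCL1 to 6, while BMF held 4 and BAK1 3. BCL2L2 held 2, including 4 separate matches to TGCTGCT, the 7-mer complementary to the seed of miR-15a-5p and miR-16-5p. BCL2L1, BCL2L13 and BCL2L11 held 1 seed each, and BID held none. A longer 3' UTR offers more positions for a match, and a match of letters is a description and not a shown target site.

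In the searched transcripts, the seed match found in most members was CTCAGGG, for miR-125b-5p. It was present in 5 of 9 members (BCL2, MCL1, BCL2L13, BAK1 and BMF), and in 15.4% of all 3' UTRs searched. Values of the 5 carriers in the second comparison ran from -0.82 (BCL2L13) to 0.29 (BCL2), so they were found at both ends of the family. Among all genes, those with CTCAGGG had a median of 0.062 in the first and -0.025 in the second comparison, against 0.026 and 0.017 without it. TGGTGCT, for miR-29a-3p, was in 4 members (BCL2, MCL1, BAK1 and BMF) and in 15.7% of all. GCACTTT, for miR-17-5p and miR-20a-5p, was in BCL2, BCL2L2 and MCL1 and in 23.3% of all. Among all genes its carriers had a median of 0.015 in the first and 0.061 in the second comparison, against 0.036 and -0.0058 without it. In the second comparison the authors' deposited table gave BCL2, BCL2L2 and MCL1 values of 0.29, 0.052 and 0.017.

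Further matches were spread over fewer members. TGCTGCT was in BCL2, BCL2L2 and BMF (23.7% of all), and GTGCAAT, for miR-92a-3p, in BCL2, MCL1 and BAK1 (11.9% of all). GTACTGT, for miR-101-3p, was in BCL2 and MCL1 (11.5% of all), and TGAATGT, for miR-181a-5p, in BCL2 and BCL2L11 (20.9% of all). CTACCTC, for let-7a-5p, was in BCL2L1 (10.3% of all), CACTGCC, for miR-34a-5p, in BMF (16.1% of all), and CTATGCA, for miR-153-3p, in MCL1 (8.83% of all). TTTGCAC, for miR-19b-3p, was in no member and in 15.0% of all. Matches to different seeds were counted independently and may overlap.

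Counted over any protein-coding transcript, the order differed: TGCTGCT was in 6 members (BCL2, BCL2L2, BCL2L13, BID, BCL2L11 and BMF), beside 28.2% of all genes, and CTCAGGG and TGGTGCT in 5 each, beside 18.3% and 19.2%. The choice of transcript added most matches in BCL2L11. Its searched 3' UTR has 817 bases, and 8 of its 17 protein-coding transcripts have a longer one, of up to 4480 bases. Over any protein-coding transcript, BCL2L11 also held matches to the seeds of miR-17-5p, miR-19b-3p, miR-15a-5p, miR-92a-3p, miR-101-3p and miR-153-3p. For BCL2L13, 9 of 11 protein-coding transcripts have a 3' UTR longer than the 1187 bases searched, of up to 4165 bases. Its added matches were for miR-15a-5p in 8 of the 11, miR-34a-5p in 4 and miR-153-3p in 9. Other transcripts added a match for let-7a-5p in BCL2, and for miR-15a-5p, miR-29a-3p and miR-34a-5p in BID, each in 1 transcript. Which of these transcripts the cells used is not known from gene-level values.

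**Figure D2:**
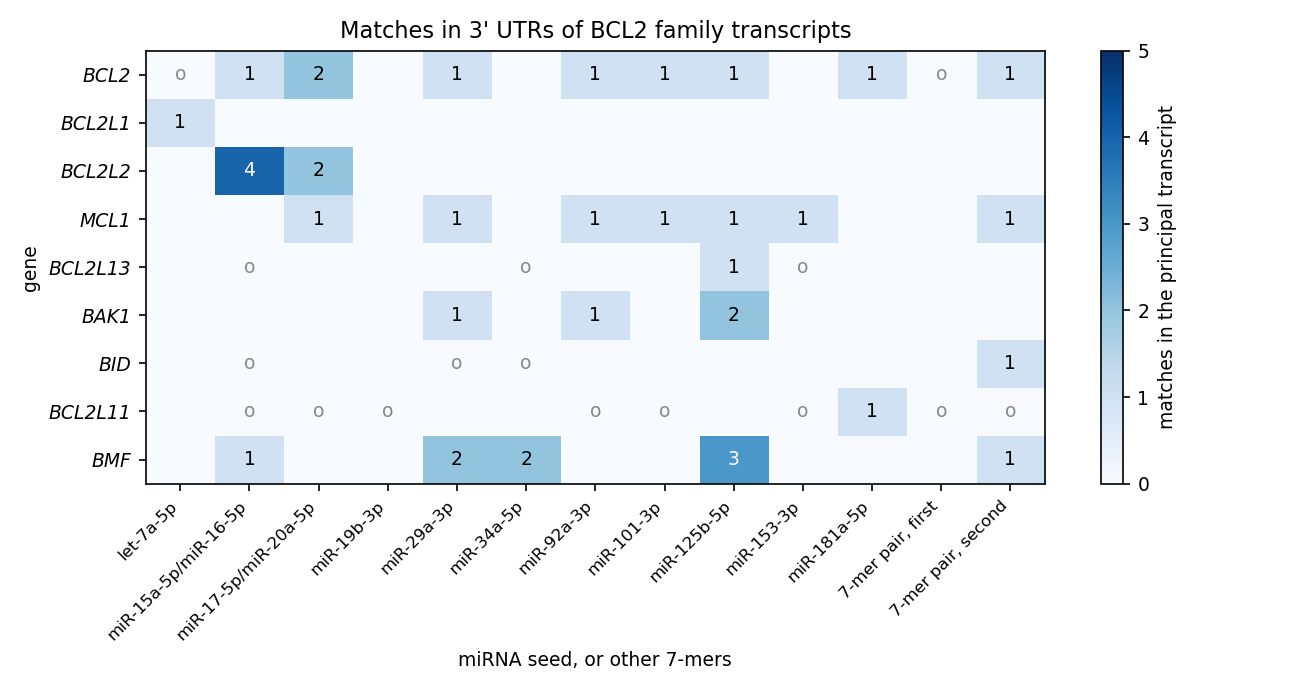
Number of matches in the 3' UTR of the searched transcript of each BCL2 family gene (rows) for 11 miRNA seeds and 2 pairs of other 7-mers (columns), with darker blue for more matches. An open circle marks a match found only in another protein-coding transcript, as for most searches in BCL2L11, and BCL2L2 has the highest count, with 4 matches for miR-15a-5p and miR-16-5p.

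An earlier search of these data picked 4 further 7-mers because genes carrying them tended to have low fold changes. CAATCTA and AATCTAA were the pair of the first comparison, where carriers of CAATCTA had a median of -0.11, against 0.039 for other genes, and carriers of AATCTAA -0.10, against 0.048. The pair was present in 14.4% of all 3' UTRs searched, and in no member's, though other coding transcripts of BCL2 and BCL2L11 held AATCTAA. The pair of the second comparison, GTGACTT and TGACTTA, was present in 20.8% of all, and there the medians were -0.084 for carriers of GTGACTT, against 0.024 for other genes, and -0.028 for carriers of TGACTTA, against 0.014. BCL2, BID and BMF held GTGACTT and MCL1 held TGACTTA, and the second-comparison values of those 4 members ran from -0.27 (BMF) to 0.29 (BCL2). BCL2L13, the lowest member in the second comparison, held none of the 4 in any of its 11 protein-coding transcripts. BCL2L11 held the second pair in 8 of its 17 coding transcripts, but not in the one searched. The 7-mers of each pair share all letters but the outermost ones, and all 4 were picked on these fold changes, so their carriers' values support nothing.

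Other genes of the pathway were described from lists of the same kind. Of 16 other genes listed as relatives of BCL2, 10 had rows, and none passed 1 in either comparison. BBC3, which encodes the BH3-only protein PUMA, was the highest of them in the first comparison and the only one past 0.5 there, with 0.85 in the authors' deposited table. Of all genes, 1.46% were above 0.5 in that comparison. HRK, another BH3-only gene, was the lowest in the second and the only one past 0.5 in size there, with -0.68 in the authors' deposited table. Below -0.5 in the second comparison were 5.59% of all genes. The authors' deposited table had BNIP2 lowest in the first, at -0.24, and BCL2L12 highest in the second, at 0.48. BNIP2 is named as a BCL2 interacting protein, so the list is wider than the family itself. The 10 listed genes with rows had a median of 0.21 in the first and 0.072 in the second comparison. For the 9 members the medians were 0.097 and -0.061. All genes had medians of 0.030 and 0.0063.

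Downstream of the mitochondria, 18 of 20 genes for released proteins, caspases and their inhibitors had rows. In the first comparison 1 of them fell and none rose, beside 0.166% and 0.174% of all genes. That gene was CYCS, cytochrome c, which BAK1 pores release, and the authors' deposited table gave it -1.25 in the first and -0.079 in the second comparison. CASP6 at -0.74 and XIAP, the caspase inhibitor, at -0.51 were also below -0.5 in the first comparison in the authors' deposited table. That made 3 of 18 genes of the list, beside 2.04% of all genes. The highest in the first comparison was HTRA2 at 0.33 in the authors' deposited table. In the second comparison CASP9, the caspase that cytochrome c activates through APAF1, was lowest and the only one past 0.5 in size, with -0.60 in the authors' deposited table. Of all genes, 5.59% were below -0.5 in the second comparison. The list had a median of 0.039 in the first and 0.11 in the second comparison, against 0.030 and 0.0063 over all genes.

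Binding partners and regulators of the family proteins all had rows, 25 of 25, and none passed 1. None passed 0.5 in the first comparison, where MOAP1 was highest at 0.26 and GSK3B lowest at -0.22 in the authors' deposited table. In the second comparison FBXW7, part of a ubiquitin ligase that marks MCL1 for destruction, was highest at 0.51, and ITM2B lowest at -0.73, in the authors' deposited table. Over all genes, 2.33% were above 0.5 and 5.59% below -0.5 there. MCL1 mRNA itself was at 0.017 in the second comparison. The medians of these partners were 0.035 and 0.0083, against 0.030 and 0.0063 over all genes. Of 10 death receptors and adaptors, 9 had rows and none passed 0.5 in either comparison. CFLAR, which blocks caspase-8, was the highest of them in both, at 0.45 and 0.48 in the authors' deposited table. RIPK1, a kinase of these receptors, was lowest in the first at -0.44, and TNFRSF10D, a decoy receptor, lowest in the second at -0.029, in the authors' deposited table. The receptors and adaptors had medians of 0.090 and 0.14, against 0.030 and 0.0063 over all genes.

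**Figure D3:**
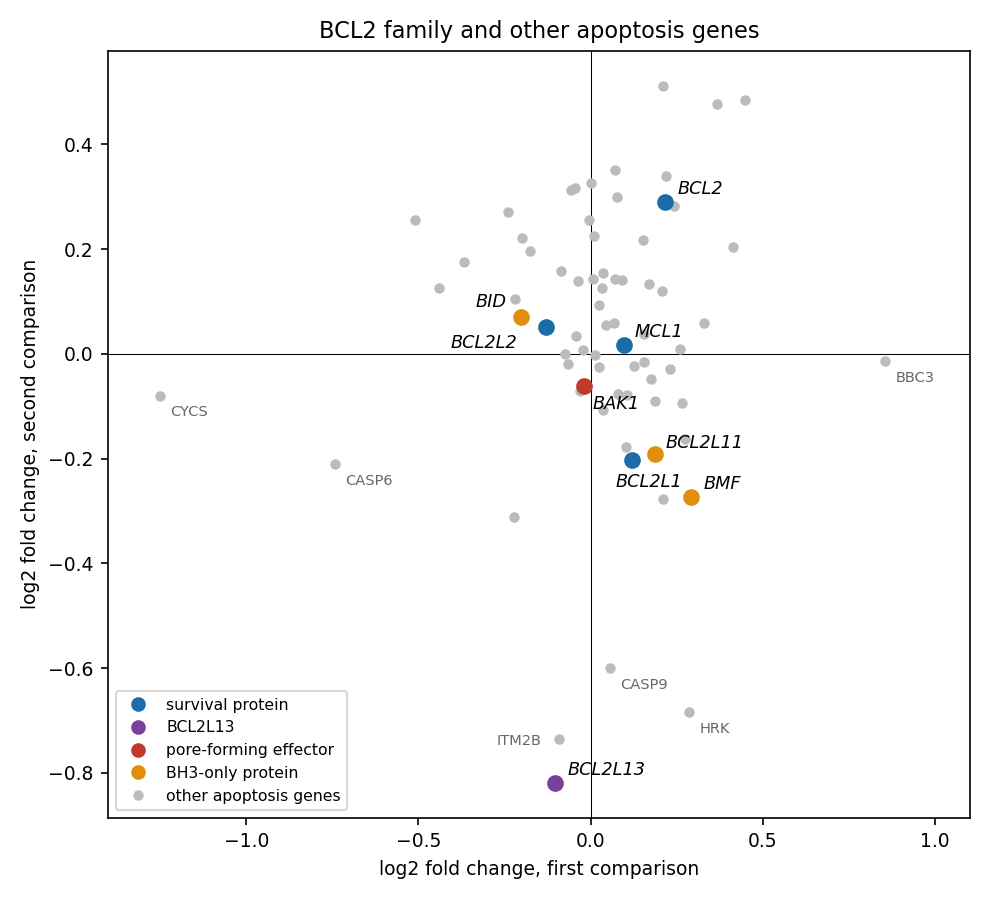
Log2 fold change in the first comparison (horizontal) against that in the second (vertical) for the 9 BCL2 family genes, coloured by role, and for the measured genes of the other apoptosis lists in grey. BCL2L13 lies lowest at -0.82 on the vertical axis, beside ITM2B at -0.73, while CYCS at -1.25 and BBC3 at 0.85 lie farthest to the left and right.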

How the data were processed

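Poly(A) RNA of 3 libraries was extracted with TRIzol and sequenced on a HiSeq2000 after TruSeq preparation, per the labels' protocols. Tools named without a role in the submitters' processing notes are TopHat2 2.06, Cuffdiff 2.1.1, Cufflinks, CASAVA 1.8.2 and SAMtools, with hg19 as the build. The deposited log2 fold changes were made by the authors as the log2 ratio of levels after adding 1; all 12040 genes met this formula within 1e-11. The 3 level columns match no label and were used for that check alone, so levels are not reported and depth is unknown. No p-values were computed, since each group has 1 library.

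The members and lists were chosen with earlier results of these data known. All 9 members are named with every value, and of each list the highest and lowest gene, except 1 that is not reported here. Genes nearest to the member farthest from 0 are the 3 with the smallest Euclidean distance over both fold changes. CASP6 and XIAP were named after their values were seen. MiRNA sequences came from RefSeq. For 10585 symbols GENCODE 29 gave a protein-coding transcript (the APPRIS principal one, then the longest), and 10368 of these 3' UTRs reached 50 bases and were searched on the transcript strand. GC content and the log2 lengths of transcript and 3' UTR, each with a squared term, were regressed out of the fold changes in an alternative, checked on simulated data. They were taken from the transcript chosen for each gene, and other transcripts were not tried. Python 3.11.15, numpy 2.4.6 and pandas 2.3.3 were used. A planned search of the members' proteins was not run.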

Additional observations from a re-analysis of the deposited data

How the results depend on the processing

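No paired analysis was possible because each group has 1 library. With the limit at 0.5, 1 member (BCL2L13) was lower in the second comparison and 2 (BCL2L13 and BMF) were higher in the difference. Of all genes, 5.59% were below -0.5 in the second comparison and 8.6% above 0.5 in the difference. After length and GC content were regressed out, BMF was at 0.42 in the difference, so only BCL2L13 stayed above 0.5 there. The share of all genes above 0.5 after this adjustment is not given, so that count has no background beside it. The counts of 0 past 1 were also 0 with length and GC content regressed out, and are 0 by construction where members were only left out. They were 0 after re-centring too, which moved values by only 0.030, 0.0063 and 0.025 and so could bring no member past 1. The median over the members, given for the first comparison, the second and the difference, was 0.067, -0.068 and 0.055 after re-centring on the median of all genes. With length and GC content regressed out it was 0.054, 0.0062 and 0.13. The mean was 0.051, -0.12 and 0.17. Without the 4 members whose searched 3' UTR holds 1 of the 4 further 7-mers, the median of the other 5 was -0.019, -0.19 and 0.32. Without any member that holds them in any coding transcript, a setting chosen after the data were seen, the median of 4 was -0.061, -0.13 and 0.18. These medians changed sign in the first comparison when carriers were left out, which leaves fewer genes, and in the second after the adjustment, where the cause was not tested. Of 54 single-gene values recomputed by re-centring or regression, 2 changed sign, both of BAK1 after the adjustment. None crossed 1, which the re-centred values could not do. Another pseudocount and a floor on levels were not run, since the level columns were used only to check the formula of the fold changes. Depth is unknown, so the precision of low genes cannot be given.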
